A study of Mus musculus with 65 samples.

Results

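Splicing and RNA-binding factors of the mouse spinal cord were followed across age, diet and sex. The set held 47 genes, printed as 56 of the 8448 features of the array, and was drawn from the 4209 genes that the platform annotation names with 1 symbol. Membership was decided by symbol alone, namely the Srsf (formerly Sfrs), Hnrnp, Sf3a and Sf3b, Snrp, Prpf, Rbm and U2af names. The members were 6 SR proteins, 13 hnRNPs, 4 SF3B subunits, 6 snRNP proteins, 2 PRP factors and 16 RBM proteins. No U2af or Sf3a gene was found among the named features, and 4 further features that carry a matching symbol beside others were left out. Every member was kept in the tests, with no filter on level.

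The tissue was spinal cord of 65 C57BL/6 mice, and each mouse was hybridised to 1 filter array of spotted cDNA clones. Mice on caloric restriction (CR), whose fortified feed was cut in steps in young adulthood, numbered 8 at 6 months (3 males and 5 females), 10 at 16 months (5 of each sex) and 7 at 24 months (3 males and 4 females). Mice fed ad libitum (AL) on regular feed numbered 10 juveniles of 17 to 44 days and 10 each at 6, 16 and 24 months, with 5 of each sex in every group. Ages in days ran from 169 to 194, from 472 to 499 and from 673 to 743 in the adult classes, and the juveniles had no CR counterpart. At 24 months the 3 CR males were all 673 days old, and the AL males were 714 to 743 days old.

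Introns are removed from a primary transcript by the spliceosome, which is built anew on each intron from small nuclear ribonucleoproteins (snRNPs) and many further proteins. SR proteins bind exons and recruit this machinery, hnRNPs package the transcript and often oppose them, and the balance of both classes sets which exons are kept. Neurons and glia use alternative exons widely, and SMN, the protein lost in spinal muscular atrophy, assembles the Sm core of the snRNPs.

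Values are Z scores, for which the features of an array average 0 and have an SD of 1, and differences are given in these Z units rather than as folds. A shift shared by most features cannot be seen on this scale, and with 1 tissue per mouse, fewer cells of a type and less RNA per cell cannot be told apart. The residual SD between mice was 0.142 Z for the median member, against 0.146 Z for the median of all 7782 rows tested, where a row is a named gene or an unnamed feature. The range over the members was 0.0674 Z (Srsf2) to 0.446 Z (Hnrnpdl). The tissue label was checked on markers, but only 3 of 14 neuronal, 1 of 13 oligodendrocyte and 4 of 11 astrocyte markers were measured. Markers such as Mbp, Gfap and Chat were not among the named features, and Z scores have no level that marks absence, so the label could neither be borne out nor contradicted.

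No label names a run, yet 2 runs of arrays were told apart by the first principal component of all features, and 3 arrays numbered 31 to 33, all of 6-month mice, stood apart from both. The second and the first run held 3 and 7 of the CR mice at 16 months and 3 and 4 of those at 24 months, but 0 and 6 of those at 6 months. Among AL mice they held 4 and 6 juveniles, 1 and 8 mice of 6 months, 4 and 6 of 16 months, and 6 and 4 of 24 months. The description of 1 array, an AL male of 24 months, disagreed with its title. Results come from all arrays and, where it matters, also from a run-adjusted fit, which holds a term for the run and drops arrays 31 to 33.

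The largest differences among the splicing factors lay between the runs, not between the groups of the study. Srsf5, an SR protein that binds exonic enhancers, measured 0.61 to 1.01 Z in the 21 mice of the second run (median 0.80), against -0.32 to 0.27 Z in the 41 mice of the first run (median -0.06). Hnrnpdl, a relative of the AU-rich element binding protein hnRNP D, ran from -0.07 to 0.27 Z (median 0.07) in the second run, against -1.08 to -0.57 Z (median -0.76) in the first run. Rbm42, an hnRNP K partner, ran from 0.46 to 0.97 Z (median 0.67), against -0.52 to 0.11 Z (median -0.13). For Srsf11, an SR protein that acts in the selection of neuronal microexons, the second run gave 0.95 to 1.21 Z (median 1.09) and the first run 0.51 to 0.92 Z (median 0.74). The runs of these 4 members did not overlap, and Srsf5, Hnrnpdl and Rbm42 were the 3 members with a residual SD over 0.3 Z. How many of all rows had runs without overlap was not counted, so the 4 cannot be read as particular to splicing factors. Among members whose runs overlapped, the largest differences between the second and the first run were those of Snrpg (-0.36 Z, as large as the 0.36 Z of Srsf11), Prpf18 (-0.33 Z), Hnrnpab (-0.29 Z) and Rbm25 (0.20 Z). In all, 15 members (31.9%) differed by over 0.1 Z between the runs, against 35.3% of all rows. Since the runs were drawn from the same values, these differences are a description and carry no test.

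**Figure D1:**
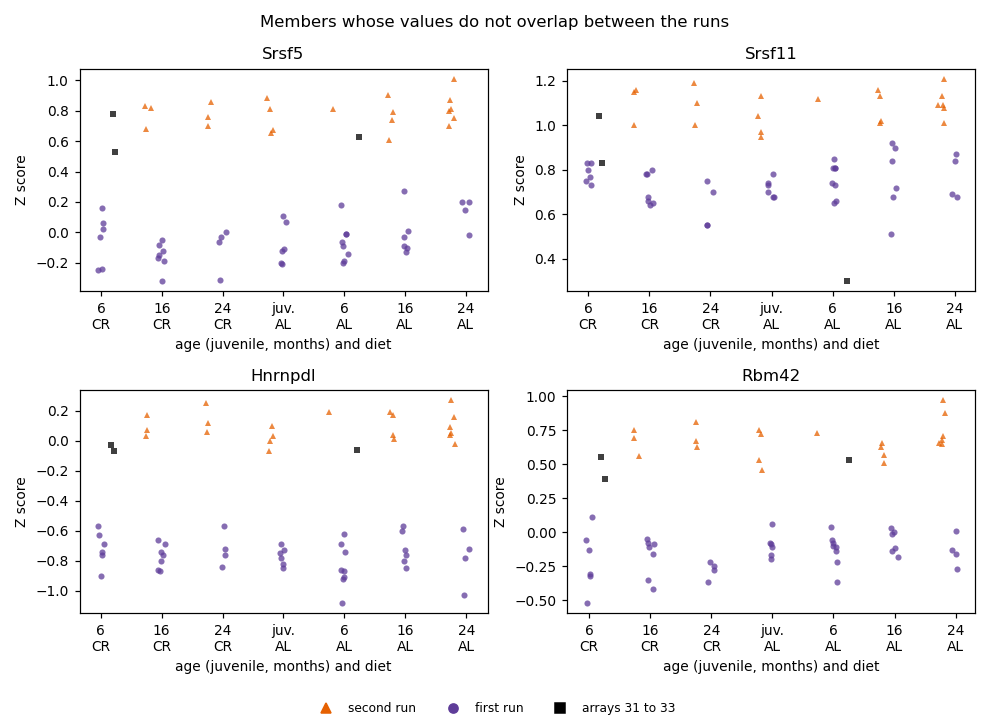
Z score (vertical axis) of Srsf5, Srsf11, Hnrnpdl and Rbm42 in each of the 65 mice, by age class and diet, with triangles for the second run, circles for the first run and squares for arrays 31 to 33. In the 6 groups that hold mice of both runs the second run lies above the first, and the CR mice of 6 months include none of the second run.

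Overall levels are given next, as means over all mice. Mean Z over the 65 mice lay above 0 for 26 of the 47 members (55.3%), against 48.5% of all rows, and 24 of the 56 member features (42.9%) lay above the mean of their printing position. Printing position, a pattern that repeats every 22 features, held 34.0% of the variance of mean Z, and clones differ in length, so a level says little about the abundance of a transcript relative to that of another gene. The mean Z of the SR proteins was -0.74 for Srsf1, which promotes the use of 5 prime splice sites, -0.30 for Srsf2, 0.25 for Srsf5, 1.60 for Srsf6, 0.85 for Srsf11 and 0.15 for Srsf10, a repressor of splicing when dephosphorylated. Among hnRNPs it was 0.24 for Hnrnpa0, 0.31 for Hnrnpa1, -0.18 for Hnrnpa2b1, -0.35 for Hnrnpab and 0.90 for Hnrnpc, which coats uridine tracts. It was -0.45 for Hnrnpdl, 2.01 for Hnrnph1, which binds runs of guanine, 0.23 for Hnrnpk and 0.78 for Hnrnpl, which bind cytosine-rich and CA-rich RNA, and -0.11 for Hnrnpr. The scaffold-attachment protein gene Hnrnpu averaged -0.11 Z, and its relatives Hnrnpul1 and Hnrnpul2 averaged -0.04 and -0.29 Z. Group means of these 19 genes spanned between 0.0860 Z (Hnrnpul2) and 0.455 Z (Srsf5).

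No member passed the test in any of the 12 comparisons (limma, Benjamini-Hochberg adjusted p under 0.05 over all 7782 rows). The comparisons themselves called 0 to 11 rows each. Counts at an unadjusted p under 0.05 are therefore given beside the share of all rows at that level, and the members named below by small p are described without a call. Over the members, the median 95% interval reached 0.127 Z to either side in the comparisons of AL age classes. It reached 0.0779 Z in that of CR against AL over the 3 ages. These intervals hold for 1 member at a time, without adjustment over rows. Larger differences were not called, such as -0.230 Z for Prpf18 at 24 against 6 months in AL mice.

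The first question was whether splicing factors differ between adult and juvenile cord. At 6 months against juveniles, 23 of 47 members were higher, the median difference was -0.005 Z (all rows, -0.003 Z), and 0 members passed the test, beside 11 of all rows (0.141%). In the run-adjusted fit 32 were higher, with a median of 0.0199 Z (all rows, 0.0006 Z), and without arrays 31 to 33 alone 31 were higher, so that the direction of the median turned. At an unadjusted p under 0.05 stood 1 member (2.13%) and 2.71% of all rows. That member was Rbm5, which regulates the splicing of apoptosis genes, with a lowest, median and highest Z of -0.67, -0.50 and 0.19 at 6 months, against -0.74, -0.52 and -0.46 in juveniles. The groups overlapped, and the highest value at 6 months belonged to array 33. The difference was 0.124 ± 0.0582 Z (SE, adjusted p = 0.984), and 0.0516 Z in the run-adjusted fit. The next smallest p belonged to Hnrnpu (-0.11 Z), Sf3b5 (-0.13 Z), a small subunit of the U2 snRNP complex SF3B, Hnrnpul2 (-0.07 Z) and Hnrnpul1 (0.09 Z), with adjusted p = 0.984 for each.

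Between 16 and 6 months in AL mice, 32 of 47 members were higher (68.1%, all rows 53.9%), with a median of 0.032 Z (all rows, 0.010 Z). Again 0 members passed, beside 2 of all rows (0.0257%), and 3 members (6.38%) stood at an unadjusted p under 0.05, against 13.3% of all rows. They were Rbm5 (-0.13 Z), Rbm7 (0.09 Z), the RNA-binding subunit of the nuclear exosome targeting complex, and Rbm26 (-0.19 Z), and Hnrnpk (-0.10 Z) and Prpf18 (-0.17 Z) followed. In the run-adjusted fit these 5 differences were smaller, at -0.06, 0.03, -0.09, -0.03 and -0.02 Z, 25 members were higher, and the median was 0.0027 Z. Without arrays 31 to 33 and with no term for the run, 24 were higher and the median was 0.00075 Z (all rows, -0.00075 Z).

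Between 24 and 16 months in AL mice, 20 of 47 members were higher, the median was -0.013 Z (all rows, -0.004 Z), and 0 members and 0% of all rows passed the test. At an unadjusted p under 0.05 stood 3 members (6.38%) and 2% of all rows. Hnrnpr, which binds SMN and accompanies actin mRNA into motor axons, had a lowest, median and highest Z of -0.46, -0.18 and -0.01 at 24 months, against -0.13, -0.05 and 0.01 at 16 months. The groups overlapped, but at 24 months only 2 of 10 values exceeded the 16-month mean. The difference was -0.148 ± 0.0683 Z (SE, adjusted p = 0.956), and it was -0.21 Z within the first run and -0.13 Z within the second. The others were Rbm19 (-0.11 Z), which acts in ribosome assembly, and Snrpe (0.09 Z), a member of the Sm ring. Sf3b1 (0.15 Z) and Sf3b2 (-0.08 Z), large subunits of SF3B, followed. In the run-adjusted fit, 8 members (17.0%) stood at an unadjusted p under 0.05, against 7.48% of all rows, and the smallest adjusted p was 0.590.

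Over the whole adult span, 24 against 6 months in AL mice, 23 of 47 members were higher and the median was -0.007 Z (all rows, -0.003 Z). The 0 members called stood beside 5 of all rows (0.0643%), and 6 members (12.8%) had an unadjusted p under 0.05, against 13% of all rows. For 38 of the 47 members the 95% interval lay within 0.3 Z of 0. The smallest p was that of Prpf18, a factor of the second step of splicing, which had a lowest, median and highest Z of 0.11, 0.39 and 0.82 at 24 months, against 0.34, 0.72 and 1.15 at 6 months. Its groups overlapped, and at 24 months 2 of 10 values exceeded the 6-month mean. The difference was -0.230 ± 0.0876 Z (SE, adjusted p = 0.336). It was 0.0138 Z within the first run and -0.0317 Z within the second, so that it nearly vanished among mice of 1 run.

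The other members with small p in this comparison also differed by less in the run-adjusted fit, to unequal degrees. Srsf5 measured -0.02, 0.73 and 1.01 Z (lowest, median and highest) at 24 months, against -0.20, -0.04 and 0.81 Z at 6 months. The groups overlapped widely, and the 0.455 ± 0.188 Z difference (SE, adjusted p = 0.342) was 0.119 Z in the run-adjusted fit. Srsf11 gave 0.221 Z and -0.0046 Z under the same pair of fits, Rbm26 -0.195 and -0.0720 Z, Rbm48, a protein of the minor spliceosome, 0.125 and 0.0152 Z, Hnrnpdl 0.403 and 0.0670 Z, and Rbm42 0.378 and 0.0413 Z. The 24-month group held 6 mice of the second run and the 6-month group 1.

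Hnrnpr and Hnrnpa2b1, which carries myelin basic protein mRNA to oligodendrocyte processes, differed more once arrays 31 to 33 were dropped. Hnrnpr measured -0.46, -0.18 and -0.01 Z (lowest, median and highest) at 24 months, against -0.60, -0.03 and 0.13 Z at 6 months. Hnrnpa2b1 measured -0.88, -0.22 and -0.07 Z at 24 months, against -1.31, -0.04 and 0.07 Z at 6 months. In both genes the lowest mouse of 6 months was array 33, the groups overlapped, and the median was the lower at 24 months. The Hnrnpr difference was -0.131 ± 0.0683 Z (adjusted p = 0.403) on all arrays, -0.186 ± 0.0510 Z (adjusted p = 0.239) without arrays 31 to 33, and -0.187 ± 0.0537 Z (adjusted p = 0.849) in the run-adjusted fit. The Hnrnpa2b1 difference was -0.144 ± 0.117 Z (adjusted p = 0.576) on all arrays, -0.269 ± 0.0792 Z (adjusted p = 0.239) without those arrays, and -0.257 ± 0.0829 Z (adjusted p = 0.997) in the run-adjusted fit. Among first-run mice the difference was -0.28 Z for Hnrnpr and -0.36 Z for Hnrnpa2b1, and among second-run mice, with a single mouse of 6 months, it was -0.13 and -0.26 Z.

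By family, the median difference at 24 against 6 months was 0.045 Z for SR proteins, between Srsf2 (-0.04 Z) and Srsf5, and -0.021 Z for hnRNPs, between Hnrnpa2b1 and Hnrnpdl. The SF3B subunits lay between Sf3b6 (-0.05 Z) and Sf3b5 (0.04 Z), and the snRNP proteins between Snrpg (-0.12 Z) and Snrpb (0.05 Z), both of the Sm ring. The PRP factors were Prpf18 and Prpf31 (0.04 Z), a protein of the U4/U6.U5 tri-snRNP, and the RBM proteins lay between Rbm26 and Rbm42. Every family median of the run-adjusted fit lay between -0.0347 Z (SF3B) and 0.0094 Z (hnRNP). When arrays were weighted by their quality, 11 members passed the test in this comparison among 1729 of all rows, 4 of them higher (Hnrnpdl, Rbm42, Srsf11 and Srsf5) and 7 lower (Hnrnpa2b1, Hnrnpab, Hnrnpr, Prpf18, Rbm19, Rbm26 and Snrpg). That fit held no term for the run, and its weights stopped before convergence. Markers of cell types also differed in the fit on all arrays, which holds no term for the run. Of the microglial markers 6 of 6 measured were higher at 24 months, with 2 called, and their summed Z ran from 0.56 to 1.62 (median 0.96) at 24 months, against -2.80 to 0.41 (median 0.11) at 6 months. Of the astrocyte markers 4 of 4 were higher, with 0 called and 2 at an unadjusted p under 0.05, and their summed Z ran from -0.45 to 0.50 (median 0.16) at 24 months, against -1.28 to 0.42 (median -0.49) at 6 months. The 2 skeletal muscle markers were both lower, with 0 called and summed Z of -1.09 to 0.17 (median -0.30) at 24 months, against -0.43 to 0.72 (median 0.15) at 6 months. Of the neuronal, blood and proliferation markers 2 of 3, 3 of 4 and 4 of 5 were higher, with 0 called. The 1 oligodendrocyte marker was higher and the 1 Schwann cell marker lower, neither called. The part of the markers in the differences of the splicing factors was not tested.

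**Figure D2:**
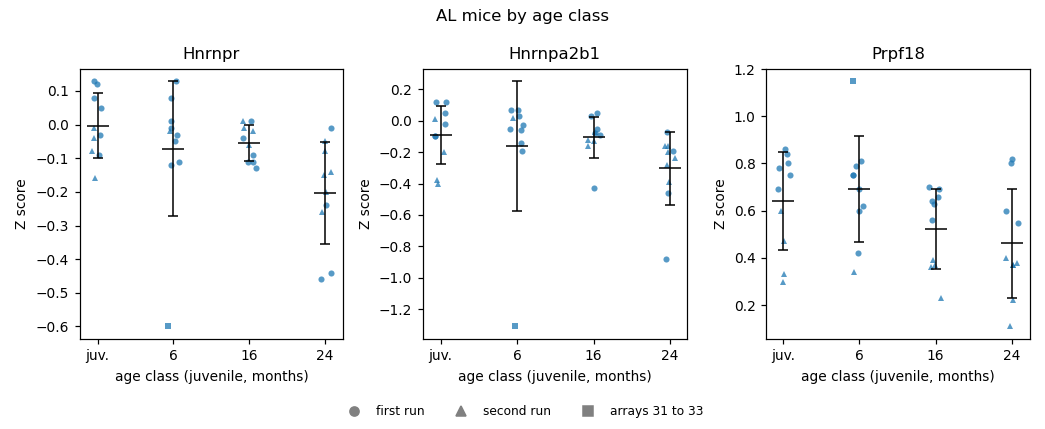
Z score (vertical axis) of Hnrnpr, Hnrnpa2b1 and Prpf18 in the 40 AL mice by age class, with bars for the mean and SD of each class. Hnrnpr and Hnrnpa2b1 lie lower at 24 than at 16 months in both runs, whereas the low values of Prpf18 are mostly those of the second run, and the squares are array 33.

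The study also asked whether CR alters expression. At 6 months 26 of 47 members were higher in CR than in AL mice, with a median of 0.019 Z (all rows, 0.0007 Z). The members called were 0, beside 2 of all rows (0.0257%), and 4 members (8.51%) stood at an unadjusted p under 0.05, against 7.7% of all rows. They were Rbm6 (0.13 Z), Rbm39 (0.09 Z), Hnrnpu (0.14 Z) and Hnrnpl (0.12 Z), and Snrpb (0.10 Z) followed, all with an adjusted p of 0.554 or more. In the run-adjusted fit, which drops 3 mice of this age, the 5 differences were 0.04, 0.02, 0.08, 0.04 and 0.02 Z. At 16 months 17 of 47 members were higher in CR mice, the median was -0.016 Z (all rows, -0.001 Z), and 0 members stood at an unadjusted p under 0.05, against 0.797% of all rows, while 0% passed the test. The smallest p there belonged to Rbm4b (-0.13 Z), Rbm7 (-0.07 Z), Hnrnpk (0.08 Z), Rbm26 (0.13 Z) and Hnrnpr (-0.09 Z), and for Hnrnpk the 10 CR values all exceeded the mean of AL mice.

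At 24 months 29 of 47 members were higher in CR mice, with a median of 0.0311 Z (all rows, 0.0018 Z), and 0 members and 0% of all rows passed the test. An unadjusted p under 0.05 was reached by 4 members (8.51%), all higher in CR mice, and by 7.35% of all rows. In the run-adjusted fit 8 members (17.0%) reached it, against 18.4% of all rows. With every array centred on its printing positions 0 members reached it and the median was 0.0085 Z. The run-adjusted fit of the centred values gave 4 members. The CR males of this class were 673 days old and the AL males 714 to 743 days, and the part of this age gap was not tested. Srsf2, also known as SC35 and a marker of nuclear speckles, had a lowest, median and highest Z of -0.42, -0.23 and -0.10 in CR mice, against -0.41, -0.33 and -0.25 in AL mice. The groups overlapped, and 6 of 7 CR values exceeded the AL mean. Among males alone the mean was -0.14 Z in 3 CR mice and -0.35 Z in 5 AL mice. The difference given next weights both sexes equally and is smaller than that of the males, so females differed by less. The difference was 0.113 ± 0.0364 Z (SE, adjusted p = 0.636), and it was 0.17 Z within the first run and 0.04 Z within the second. It was 0.105 Z (adjusted p = 0.0948) in the run-adjusted fit.

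Sf3b6, the SF3B subunit that lies against the branch point adenosine, measured -0.26, -0.12 and 0.18 Z (lowest, median and highest) in CR mice of 24 months, against -0.30, -0.25 and -0.02 Z in AL mice. The CR group spanned nearly the whole AL range and reached above it, and 5 of 7 CR mice exceeded the AL mean. Among males alone the mean was 0.01 Z in 3 CR mice and -0.20 Z in 5 AL mice. As for Srsf2, the difference over both sexes is smaller than that of the males, so females differed by less. The difference was 0.122 ± 0.0419 Z (SE, adjusted p = 0.636), with 0.12 Z within the first run and 0.10 Z within the second. Rbm39, a relative of the U2AF subunit that recognises 3 prime splice sites, differed by 0.09 Z, Rbm6 by 0.11 Z and Srsf10 by 0.09 Z, and all 3 kept a positive difference within each run.

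Over the 3 ages together, 24 of 47 members were higher in CR mice, the median was 0.0060 Z (all rows, -0.0012 Z), and the 0 members called stood beside 1 of all rows (0.0129%). Of the members, 9 (19.1%) had an unadjusted p under 0.05, against 10.5% of all rows, and 8 of these were higher in CR mice. They were Rbm6, Rbm39, Srsf2, Sf3b6, Srsf6, Snrpb (0.07 Z), Hnrnpu (0.08 Z) and Hnrnpc (0.08 Z), with Snrpd1 (-0.08 Z) lower. That p was reached by 5 members (10.6%) in the run-adjusted fit, against 5.08% of all rows, by 4 when just arrays 31 to 33 were left out, and by 2 when every array was centred on its printing positions. The run-adjusted fit of the centred values gave 1 member. For 45 of the 47 members the 95% interval lay within 0.3 Z of 0.

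Rbm6, a relative of Rbm5, had a lowest, median and highest Z of 0.86, 0.95 and 1.29 in the 25 CR mice, against 0.62, 0.92 and 1.11 in the 30 AL mice. The ranges overlapped through most of their width, and 21 of 25 CR values exceeded the AL mean of their own age class. The difference was 0.0933 ± 0.0275 Z (SE, adjusted p = 0.432), and 0.0583 Z (adjusted p = 0.811) in the run-adjusted fit. Within the first and the second run it was 0.06 and 0.04 Z. Rbm39 measured 0.98, 1.06 and 1.29 Z in CR mice, against 0.75, 1.02 and 1.21 Z in AL mice, again with wide overlap. Its difference was 0.0650 ± 0.0217 Z (SE, adjusted p = 0.432), and 0.0355 Z in the run-adjusted fit. The differences of Srsf2 (0.05 Z), Sf3b6 (0.06 Z) and Srsf6 (0.07 Z) were 0.04, 0.04 and 0.05 Z in that fit.

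The family medians of CR against AL ran from -0.0283 Z (PRP factors) to 0.0355 Z (SF3B). The largest and smallest differences were those of Srsf6 and Srsf5 (-0.14 Z), of Hnrnpc and Hnrnpul1 (-0.06 Z), of Sf3b6 and Sf3b2 (-0.01 Z), of Snrpb and Snrpd1, of Prpf31 (-0.01 Z) and Prpf18 (-0.04 Z), and of Rbm6 and Rbm42 (-0.14 Z).

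**Figure D3:**
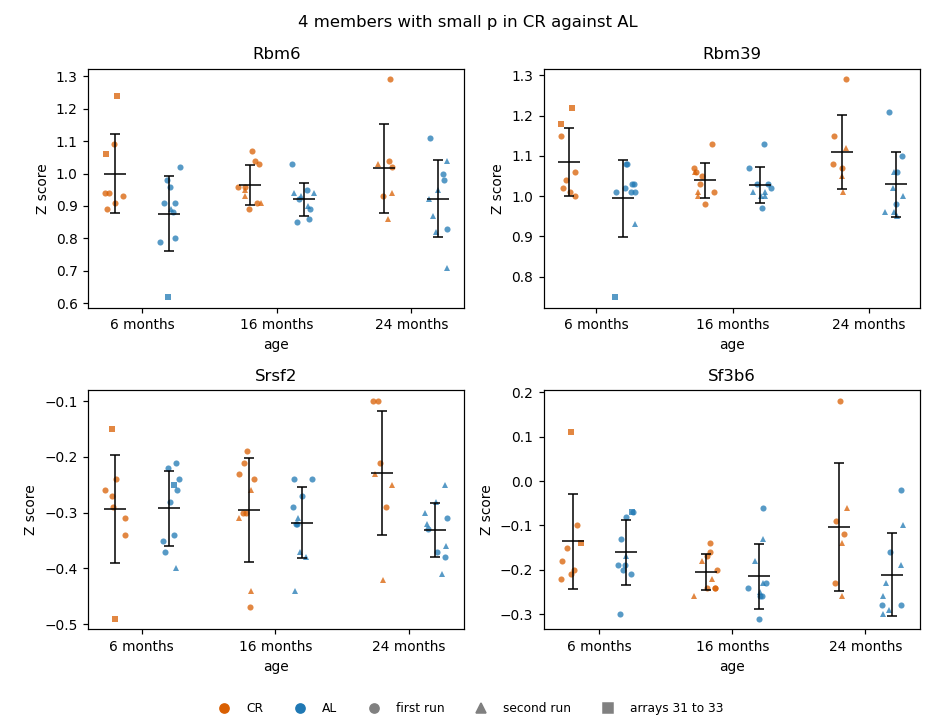
Z score (vertical axis) of Rbm6, Rbm39, Srsf2 and Sf3b6 in CR (orange) and AL (blue) mice of 6, 16 and 24 months, with bars for the mean and SD of each group. CR means lie slightly above AL means at 24 months and close to them at 16 months, and the points of both diets overlap at every age.

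**Figure D4:**
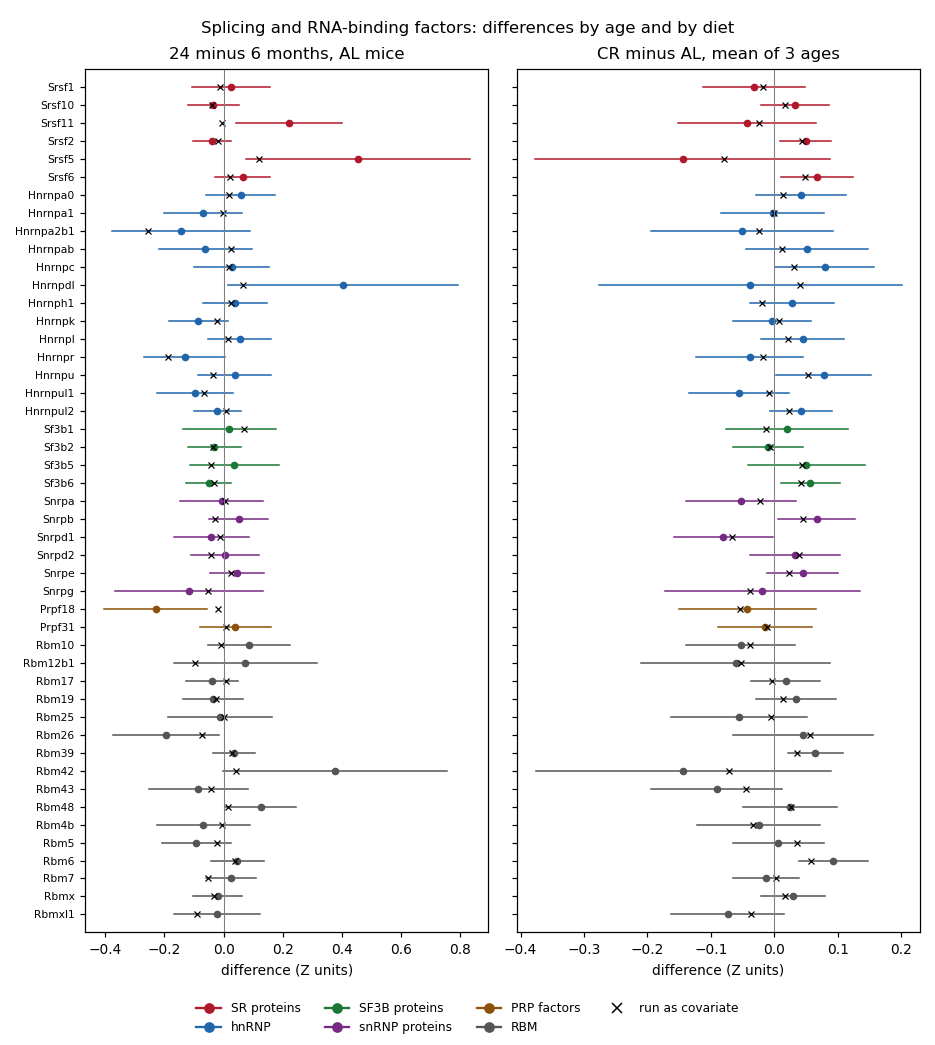
Difference in Z units with its 95% interval (horizontal axis) for each of the 47 members, at 24 against 6 months in AL mice and in CR against AL mice over the 3 ages. Crosses give the run-adjusted fit, and lie near 0 for Srsf11, Prpf18 and Rbm42 in the comparison of ages.

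In CR mice alone, 24 against 6 months, 33 of 47 members were higher (70.2%, all rows 57.3%) and the median was 0.0221 Z (all rows, 0.0150 Z). Only 22 were higher in the run-adjusted fit, with a median of -0.0020 Z (all rows, 0.0021 Z). Without arrays 31 to 33 and with no term for the run, 24 were higher and the median was 0.0054 Z (all rows, -0.00125 Z). The 0 members called stood beside 2 of all rows (0.0257%), and 3 members (6.38%) had an unadjusted p under 0.05, all lower at 24 months, against 8.75% of all rows. Hnrnpk, which couples signalling to transcription and splicing, had a lowest, median and highest Z of -0.06, 0.12 and 0.29 at 24 months, against 0.16, 0.29 and 0.39 at 6 months. The groups overlapped, but at 24 months 1 of 7 values exceeded the 6-month mean. The difference was -0.157 ± 0.0587 Z (SE, adjusted p = 0.505). The fit without array 33, an AL mouse of 6 months that enters here only through the shared spread, kept that difference with an SE of 0.0415 Z and an adjusted p of 0.0385. It was the single one of 65 fits leaving out 1 array that called a member, and without arrays 31 to 33 together the adjusted p was 0.292. The count of all rows called without array 33 is not given here, so the call cannot be read as particular to Hnrnpk.

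Rbm26 (-0.24 Z) and Prpf18 (-0.23 Z) followed in CR mice, and then Srsf2 (0.06 Z) and Rbm17 (0.07 Z), which binds 3 prime splice sites. In the run-adjusted fit, 10 members (21.3%) stood at an unadjusted p under 0.05, against 17.1% of all rows, with a smallest adjusted p of 0.185. Microglial markers were higher in 6 of 6 cases here as well, with summed Z of 0.38 to 1.32 at 24 months, against -1.33 to 0.33 at 6 months, and their part was not tested. The 6-month CR group held no mouse of the second run. The difference between the diets in this age step was tested directly, and 0 members and 0% of all rows passed. At an unadjusted p under 0.05 stood 0 members, against 1.54% of all rows. The smallest p belonged to Srsf2 (0.101 ± 0.0508 Z, SE, adjusted p = 0.999), then Rbm17 (0.11 Z), Rbm4b (0.19 Z), Srsf11 (-0.20 Z) and Sf3b6 (0.08 Z).

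Adult males were next set against adult females, with the 6 adult groups weighted equally. Of 47 members 23 were higher in males, the median was -0.0003 Z (all rows, 0.0054 Z), and 0 members and 0% of all rows passed the test. An unadjusted p under 0.05 was reached by 4 members (8.51%) and by 3.51% of all rows. Of all members and comparisons the smallest p was found here, for Srsf2. It had a lowest, median and highest Z of -0.41, -0.25 and -0.10 in 26 males, against -0.49, -0.32 and -0.21 in 29 females. The sexes overlapped, yet 21 of 26 males lay above the mean of the females of their own age and diet. The male mean was the higher in 5 of the 6 groups of age and diet, the exception being AL mice of 24 months. The difference was 0.0828 ± 0.0201 Z (SE, adjusted p = 0.353). It was 0.06 Z within the first run, 0.07 Z within the second, and 0.0663 ± 0.0186 Z (adjusted p = 0.916) in the run-adjusted fit.

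Sf3b6 was likewise the higher in males in 6 of 6 groups. It measured -0.31, -0.18 and 0.18 Z (lowest, median and highest) in males, against -0.30, -0.21 and -0.08 Z in females, with a difference of 0.0666 ± 0.0232 Z (SE, adjusted p = 0.991). The female range lay almost wholly inside the male range. Hnrnpa2b1 and Hnrnpr were lower in males in 6 of 6 groups, by -0.164 ± 0.0715 Z and -0.091 ± 0.0420 Z (SE, adjusted p = 0.991 for both), and Rbm12b1 followed (-0.14 Z). Over the 6 groups the male minus female difference of Rbm12b1 ran from -0.388 to -0.036 Z. In AL males of 6 months its lowest, median and mean Z were -0.29, 1.37 and 1.06. For Hnrnpa2b1 the difference was -0.19 Z within the first run and 0.02 Z within the second.

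**Figure D5:**
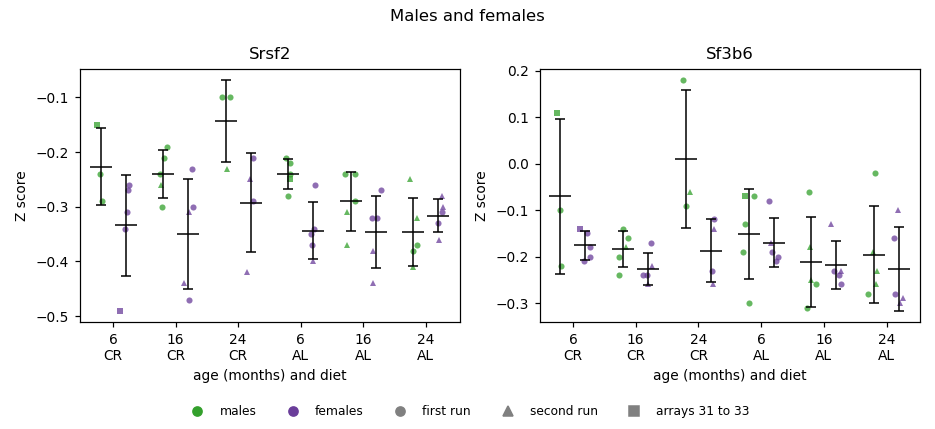
Z score (vertical axis) of Srsf2 and Sf3b6 in males (green) and females (purple) of each adult age and diet, with bars for the mean and SD. Male means of Srsf2 exceed female means in 5 of 6 groups and those of Sf3b6 in 6 of 6, while the points overlap in most groups.

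Srsf2 carried the smallest p of the set, and Hnrnpa1 and Hnrnpa2b1, the classical core hnRNP A and B proteins, varied together across mice, so their promoters are shown. They run over 250 bases before and 50 bases after the start in RefSeq (GRCm38.p6), in the direction of the gene, with each CCAAT box (CCAAT, or ATTGG on the other strand) in capitals. The Srsf2 promoter lies on the minus strand at chr11:116853045-116853344, that of Hnrnpa1 on the plus strand at chr15:103240147-103240446, and that of Hnrnpa2b1 on the minus strand at chr6:51469845-51470144.
Srsf2: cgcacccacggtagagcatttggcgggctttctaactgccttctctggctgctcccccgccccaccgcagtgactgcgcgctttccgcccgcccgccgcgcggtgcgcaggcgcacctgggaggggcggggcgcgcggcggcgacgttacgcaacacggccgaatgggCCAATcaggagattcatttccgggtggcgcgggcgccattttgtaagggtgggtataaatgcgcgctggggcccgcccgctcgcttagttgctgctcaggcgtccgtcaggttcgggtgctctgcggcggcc
Hnrnpa1: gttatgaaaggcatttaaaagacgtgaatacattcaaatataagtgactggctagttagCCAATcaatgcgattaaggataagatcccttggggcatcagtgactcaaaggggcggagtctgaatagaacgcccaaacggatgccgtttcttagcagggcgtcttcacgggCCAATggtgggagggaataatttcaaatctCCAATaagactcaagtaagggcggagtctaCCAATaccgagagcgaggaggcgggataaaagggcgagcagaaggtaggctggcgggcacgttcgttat
Hnrnpa2b1: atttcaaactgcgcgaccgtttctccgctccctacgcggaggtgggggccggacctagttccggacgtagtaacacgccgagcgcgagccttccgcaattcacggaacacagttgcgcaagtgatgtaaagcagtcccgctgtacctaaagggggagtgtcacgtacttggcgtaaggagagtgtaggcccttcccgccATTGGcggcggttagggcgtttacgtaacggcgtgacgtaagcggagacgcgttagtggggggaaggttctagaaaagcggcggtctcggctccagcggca
Hnrnpa1 holds 4 CCAAT boxes and the others 1 each. Of the 47 members 41 had a promoter in the RefSeq table, 53 promoters in all, of which 56.6% held CCAAT on either strand, against 37.4% of all 32851 promoters. GGGCGG was found in 60.4% against 35.7%, TGACG in 56.6% against 20.8%, and CCGGAAGT in 11.3% against 3.89%. The shares lay closer for TATAAA (11.3% against 13.6%), CACGTG (7.55% against 7.15%) and GCATGCGC (3.77% against 2.71%). The median GC content was 61% in members against 52.7% in all promoters. These motifs were picked after the promoters had been looked at, base composition was not matched, and the shares are a description.

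Juveniles over 25 days were compared with those under 25 days, 5 mice each. Of 47 members 27 were higher in the older juveniles, with a median of 0.0117 Z (all rows, 0.0050 Z) that was -0.0033 Z in the run-adjusted fit, and 0 members and 0% of all rows passed. An unadjusted p under 0.05 was reached by 1 member (2.13%), against 2.25% of all rows. That was Hnrnpa1, an hnRNP that silences exons, with 0.405 Z at 33 days, 0.320 and 0.305 Z at 40 days, 0.470 Z at 43 days and 0.535 Z at 44 days, against 0.490 and 0.095 Z at 17 days, 0.025 and 0.160 Z at 19 days and 0.225 Z at 21 days. All 5 older juveniles lay above the mean of the younger, and the groups overlapped through 1 female of 17 days. The difference was 0.223 ± 0.0885 Z (SE, adjusted p = 1.0), with 0.11 Z within the first run and 0.19 Z within the second. Of the younger mice 3 were in the second run, and of the older 1. Rbm48 (-0.16 Z), Srsf5 (-0.43 Z), Rbm42 (-0.43 Z) and Prpf18 (0.20 Z) followed, at -0.08, -0.10, -0.09 and 0.06 Z in the run-adjusted fit.

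The 8 members printed as several clones gave a check on how far a feature stands for its gene. Correlations below are over the residuals of the 65 mice from their group means, and the mice share the runs. The pair of Hnrnpa1 features (mean Z 0.10 and 0.52) varied together at r = 0.70, or 0.60 once the run was taken out and arrays 31 to 33 were left out. In older against younger juveniles they differed by 0.143 and 0.302 Z, in the same direction. Both Hnrnpa1 features lie at printing position 6, while the features of each other member here lie at differing positions. For the Hnrnpa1 pair a shared position therefore cannot be told apart from a shared gene. The pairs of Hnrnpu (mean Z -0.23 and 0.0029), Rbm25 (-0.80 and 0.0068) and Rbm19 (-1.04 and 1.16) gave r = 0.63, 0.46 and 0.33, or 0.18, 0.25 and 0.42 with the run. The Prpf31 pair (2.18 and 1.499) gave 0.19, or -0.29 with the run. Srsf10 (-1.42 and 1.73) gave -0.12 and Sf3b2 (-0.30 and 0.69) -0.50, or -0.15 and 0.11 with the run. For Rbm7 features 14137 and 15119 (mean Z 0.53 and -0.33) correlated at 0.78, but each ran against feature 10569 (0.64), at -0.58 and -0.76, and these 3 values were 0.37, -0.18 and -0.09 with the run.

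Features of 1 gene could thus sit far apart on the Z scale and vary independently, and a gene name rests on the clone annotation. At 24 against 6 months in AL mice the clones of Sf3b2 differed in sign (0.06 and -0.12 Z), as did those of Rbm25 (0.08 and -0.11 Z), Rbm19 (-0.08 and 0.0070 Z), Hnrnpa1 (0.02 and -0.16 Z) and Rbm7 (0.20, -0.04 and -0.08 Z). Those of Hnrnpu (0.04 and 0.03 Z), Prpf31 (0.04 and 0.04 Z) and Srsf10 (-0.02 and -0.05 Z) had the same sign. Spotted cDNA cannot separate near-identical transcripts, so that Rbmx and its retrogene copy Rbmxl1, or Hnrnpa1 and its pseudogenes, may share signal.

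Some members varied together. Over the 62 mice of both runs and with the run taken out, the closest pairs were Snrpe with Srsf6 (r = 0.76), Snrpd1 with Srsf1 (0.76), Rbmx with Snrpd2 (0.74), Sf3b6 with Srsf6 (0.73), Hnrnpu with Sf3b5 (0.71), Hnrnpr with Rbmxl1 (0.70), Hnrnpa1 with Hnrnpa2b1 (0.69) and Hnrnpa2b1 with Hnrnpr (0.68). These pairs were picked as the highest of 1081. The median over all pairs was -0.020 among members and -0.0073 in an evenly spaced subset of all rows. Of the member pairs 4.26% lay above 0.5, against 3.01% of pairs in that subset. The median member, computed for each mouse, lay between -0.005 and 0.22 Z in all 7 groups of age and diet. It averaged 0.0975 ± 0.0599 Z in CR mice of 6 months, 0.10 ± 0.0565 Z at 16 months and 0.111 ± 0.0379 Z at 24 months, against 0.104 ± 0.0345 Z in AL juveniles and 0.106 ± 0.0601, 0.145 ± 0.0456 and 0.115 ± 0.0630 Z at the 3 adult ages (SD). All these groups overlapped.

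Neighbouring steps of RNA processing gave the same count of calls. Of the other spliceosome components 29 of 83 listed genes were measured, of splicing kinases and SR-related factors 13 of 25, of tissue and other splicing regulators 22 of 57, and of 3 prime end processing and mRNA export factors 13 of 34, and none was called in any of the 12 comparisons. At 24 against 6 months in AL mice 12 of 29, 6 of 13, 12 of 22 and 7 of 13 were higher (all rows, 48.8%), and 4, 0, 3 and 0 stood at an unadjusted p under 0.05 (all rows, 13%). The smallest p in each list belonged to Bcas2 (0.26 Z, adjusted p = 0.342), a core protein of the PRP19 complex, Srpk2 (-0.12 Z, adjusted p = 0.393), an SR protein kinase, Msi2 (-0.19 Z, adjusted p = 0.336), an RNA-binding protein of the Musashi family, and Nudt21 (0.08 Z, adjusted p = 0.444), a subunit of cleavage factor Im. In CR against AL over the 3 ages 13, 7, 10 and 8 were higher (all rows, 49.3%), 5, 1, 1 and 0 stood at an unadjusted p under 0.05 (all rows, 10.5%), and the smallest p belonged to Acin1 (-0.11 Z), Clk3 (0.09 Z), a kinase of SR proteins, Rbfox2 (0.06 Z), a regulator of neuronal exons, and Alyref (0.06 Z), an mRNA export adaptor, with adjusted p between 0.432 and 0.543. At 6 months against juveniles they were Sugp1 (0.13 Z), Srpk2 (0.13 Z), Elavl1 (0.10 Z), which stabilises AU-rich mRNAs, and Pabpn1 (0.10 Z), the nuclear poly(A) binding protein, all with an adjusted p of 0.984.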

How the data were processed

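Spinal cord RNA was labelled with a radioactive nucleotide, hybridised to the B filter of the NIA 17K mouse cDNA array and imaged, and spots were quantified by ArrayPro. The authors deposited a score per feature, scaled to a Z score over the features of its array. No background treatment, log base or genome build was given in the sources used here. Features were named through the platform annotation, and all 47 member symbols stood unchanged in the RefSeq table. Of 8448 features 4875 had 1 symbol. Their scores were averaged per gene (4209 genes), which with the unnamed features gave 7782 rows.

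limma 3.58.1 in R 4.3.3 was fitted with 14 group means, or 16 where juveniles were divided at 25 days, and both sexes were weighted equally. Benjamini-Hochberg adjustment ran over all 7782 rows. The fit was tested on simulated data. Members and lists were chosen with earlier results of these data known. Named genes were every called member, the 5 smallest p in each comparison, members with several features, family extremes at 24 against 6 months in AL mice and in CR against AL, the smallest p of each list, and all SR proteins and hnRNPs. The pairs that varied together, the members whose runs did not overlap, and the members with an unadjusted p under 0.05 beyond these were picked after their values were seen. Alternatives were other handling of runs, arrays, positions, scale and averaging, each replicate left out, and the study's selection (mean Z above 0, z-ratio of at least 1.5, p under 0.05), without its ANOVA. Protein sequences were not used here. The scores carry no depth, so precision rests on how many arrays a group has.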

Additional observations from a re-analysis of the deposited data

Results flagged for a closer look

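For the 15 members described one by one, each of 105 combinations of gene and group was searched for a mouse far from the others by Dixon's criterion. It marked 13, and chance alone marks about 1 in 20 groups. Array 33, an AL male of 6 months, was the marked mouse in 7 of them, with -0.44 Z for Hnrnpa0 (nearest other mouse, 0.13), -1.31 Z for Hnrnpa2b1 (-0.19), 1.39 Z for Hnrnph1 (1.89), 0.86 Z for Hnrnpk (0.30), -0.60 Z for Hnrnpr (-0.12), 0.75 Z for Rbm39 (0.93) and 0.19 Z for Rbm5 (-0.31). Array 31, a CR male of 6 months, had 0.11 Z for Sf3b6 (nearest, -0.10). The others were Hnrnpa2b1 in AL males of 16 and 24 months (-0.43 and -0.88 Z, nearest -0.16 and -0.46), Rbm17 in a CR female of 6 months (0.19 Z, nearest 0.36), Rbm5 in an AL female of 24 months (-0.78 Z, nearest -0.58) and Rbm6 in a CR male of 24 months (1.29 Z, nearest 1.04).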

How the results depend on the processing

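The count of members called was 0 in all 12 comparisons and stayed 0 under the other settings, with these exceptions. Array weights called 11 of 47 members at 24 against 6 months in AL mice, beside 1729 of all 7782 rows. The study's selection, which makes no correction for multiple tests, kept 3 members there (Prpf18, Srsf11 and Srsf5, of 136 rows), 1 in CR against AL over the 3 ages (Rbm6, of 86 rows) and 1 at 24 against 6 months in CR mice (Prpf18, of 264 rows). Leaving out each array in turn gave 0 to 1 members at 24 against 6 months in CR mice, the 1 being Hnrnpk without array 33. The count of all rows called in that fit is not given here. The cause was not tested. The median difference of the members moved by at most 0.0449 Z, and its sign turned under at least 1 setting in 8 of the 12 comparisons. It kept its sign in the other 4, which were 24 against 16 months in AL mice and CR against AL at each of the 3 ages. No paired analysis was possible because replicate numbers were given in accession order and pair no mice. With the 5 rounds of array numbers as a block instead, 0 members were called in any comparison. Depth is unknown for these scores, and the median 95% interval of a member reached 0.127 Z to either side between AL age classes. The selection was not run on the difference between the age steps.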
